A study of Mus musculus with 2 samples.

Results

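The data described here are the counts of 10 genes of NF-κB signalling and the inflammasome in mouse liver. They were chosen by symbol, with earlier results of these data known, and were Nfkb1, Nfkb2, Rela, Relb, Nfkbia, Tnfaip3, Nlrp3, Casp1, Il1b and Csf1. All 10 were found among 52636 named genes, and all 10 held the 20 counts over both libraries that were asked of a gene before its ratio was read. Liver RNA of 4 C57BL/6 mice per genotype went into 1 pool, from which 1 library was made. The mice were 8 weeks old and ate normal chow. The flox-labelled library came from Mettl3 flox/flox mice, and the HKO-labelled library from Mettl3 flox/flox mice that also carried 1 copy of Alb-Cre, which deletes the floxed exons of the m6A writer Mettl3 in cells that use the albumin promoter. Both groups therefore carried the floxed alleles, and the control mice carried no Cre. The study compared the livers to see how gene expression differs when hepatocytes lack Mettl3.

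With 1 pool per genotype no difference below has a replicate check. Each describes 2 libraries and cannot be assigned to genotype. The libraries held 21457504 and 18438807 counts of named genes. The label could not be checked from gene-level counts. Mettl3 was not the lower of the pair, with 156 counts in the flox-labelled library and 220 in the other. That is a 1.36-fold higher level (1.11 to 1.69), and 18.4% of the exonic bases of Mettl3 lie inside Tox4. Reads from the exons that remain after deletion, and from cells that do not express the Cre, count as well, so the label is used only as a name. The hepatocyte markers Alb, Apoa1, Ttr, Cps1, Tat and Serpina1a were abundant in both libraries, from 18853 counts upward. A ratio is given as the HKO-labelled library over the flox-labelled library, after TMM scaling, with the 95% interval from counting error alone in brackets. A gene is called past 2-fold when its ratio is at least 2-fold and the interval excludes equality. Of 14433 genes tested, 828 were past 2-fold higher, or 5.74%, and 672 were past 2-fold lower, or 4.66%. With scaling by total counts these numbers were 1504 and 409, and every log2 ratio lay 0.27 higher.

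NF-κB is a family of dimeric transcription factors built from Rel proteins. In resting cells IκB proteins hold the dimers in the cytoplasm. In the canonical arm, signals from TNF, IL-1 and Toll-like receptors lead to loss of IκBα, and dimers that hold p65 enter the nucleus. In the non-canonical arm a precursor encoded by Nfkb2 is processed and pairs with RelB. Many of the genes that NF-κB switches on belong to the pathway itself and act as brakes or amplifiers. The NLRP3 inflammasome is a cytosolic complex that activates caspase-1, which cuts the IL-1β precursor into its active form. In liver the sensor of that complex is known chiefly from macrophages, while the Rel proteins are found in hepatocytes and in the other liver cells.

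Across the 10 genes, 5 were past 2-fold higher in the HKO-labelled library and none was past 2-fold lower. The higher ones were Tnfaip3, Nlrp3, Csf1, Nfkb2 and Relb, and of all genes tested 5.74% were past 2-fold higher. Because the 10 genes were chosen with earlier results of these data known, the shares of all genes beside them are a description only. Nfkb1 and Rela, the partners of the canonical arm, differed by less than 1.2-fold, and Nfkbia was lower. The median log2 ratio of the 10 genes was 0.63, while that of all genes tested was 0.01 with quartiles of −0.31 and 0.37. The interval lay wholly above equality for 7 of the 10 and wholly below it for 1, while 28.4% and 27.6% of all genes tested were in these classes. With a limit of 1.5-fold, again 5 of the 10 were higher and none lower, where 13.0% and 10.3% of all genes tested were.

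**Figure D1:**
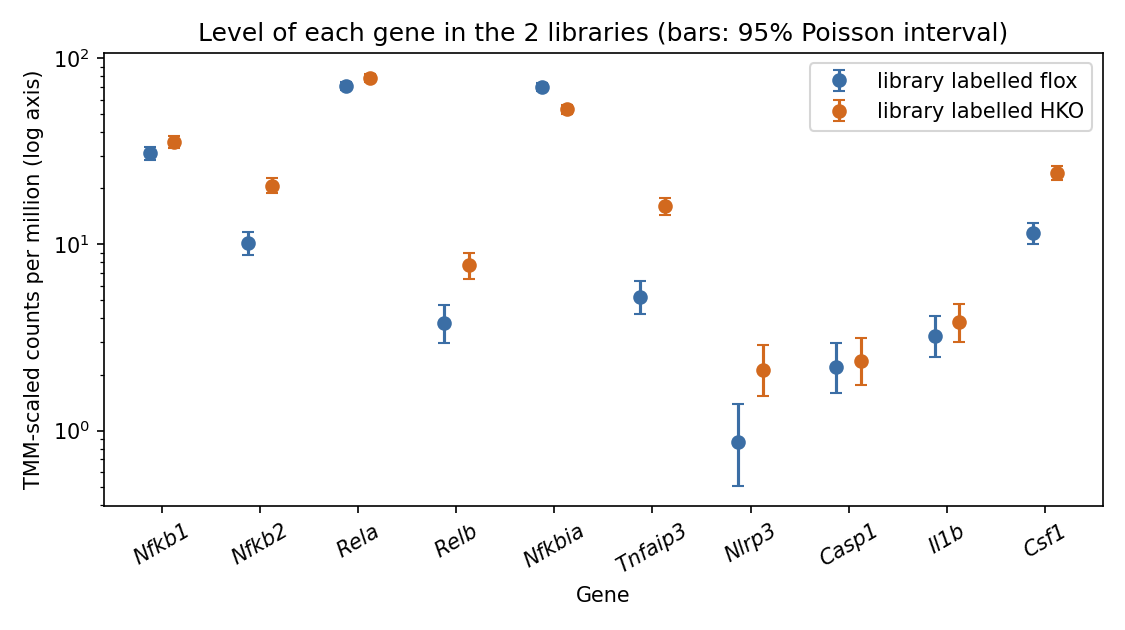
TMM-scaled CPM (counts relative to library size) on a log axis for each of the 10 genes in the flox-labelled library (blue) and the HKO-labelled library (orange), with 95% Poisson intervals that cover counting error only. The intervals are apart for Nfkb2, Relb, Tnfaip3, Nlrp3 and Csf1, with the HKO-labelled library above, and for Nfkbia, with the flox-labelled library above, they just miss each other for Rela, and they overlap for Nfkb1, Casp1 and Il1b.

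The sequence before the start site was examined for the 10 genes where available, because several members of this pathway are known targets of NF-κB. RefSeq promoter windows on GRCm38.p6, of 250 bases before and 50 bases after a start site, were given for 8 of the 10 genes in 12 windows. Relb, which was among the 5 higher genes, and Nfkb1 were not examined here. The canonical κB consensus was searched on both strands. It was found in 7 of the 12 windows, which belong to 5 genes, and in 8.46% of all 32851 windows. By gene, 5 of 8 held a match, where 9.55% of all 27025 genes with a window did. A list of known targets can have a high share whatever these libraries held. No conclusion about the libraries is drawn from it. The 5 genes were Tnfaip3, Nfkb2, Csf1, Nlrp3 and Nfkbia, of which the first 4 were past 2-fold higher and Nfkbia was not. Some windows of Nfkb2 overlap, and 1 of its matches was counted in both. No match was found in the windows of Rela, Casp1 and Il1b. A match is a description of the letters and not of a bound site. Tnfaip3 and Nlrp3 each had another window with 0 matches. For each of the 5 genes 1 window that holds a match is shown so that the positions can be compared. For Nfkb2 it is the window with the most matches. The windows are written 5′ to 3′ on the gene's strand, with the κB matches in capitals.
Tnfaip3, chr10:19015361-19015660, minus strand: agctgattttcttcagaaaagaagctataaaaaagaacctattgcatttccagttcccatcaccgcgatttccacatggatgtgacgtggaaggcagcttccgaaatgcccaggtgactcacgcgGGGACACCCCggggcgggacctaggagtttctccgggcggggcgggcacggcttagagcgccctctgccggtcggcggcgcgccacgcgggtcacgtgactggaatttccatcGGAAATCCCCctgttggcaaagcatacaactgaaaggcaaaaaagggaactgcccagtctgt
Nfkb2, chr19:46304487-46304786, plus strand: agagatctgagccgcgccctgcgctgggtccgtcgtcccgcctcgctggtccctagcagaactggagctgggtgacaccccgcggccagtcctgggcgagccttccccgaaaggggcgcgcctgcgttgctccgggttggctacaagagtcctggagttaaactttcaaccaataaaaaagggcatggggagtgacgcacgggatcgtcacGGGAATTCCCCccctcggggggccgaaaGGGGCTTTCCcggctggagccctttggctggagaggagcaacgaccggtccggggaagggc
Csf1, chr3:107760420-107760719, minus strand: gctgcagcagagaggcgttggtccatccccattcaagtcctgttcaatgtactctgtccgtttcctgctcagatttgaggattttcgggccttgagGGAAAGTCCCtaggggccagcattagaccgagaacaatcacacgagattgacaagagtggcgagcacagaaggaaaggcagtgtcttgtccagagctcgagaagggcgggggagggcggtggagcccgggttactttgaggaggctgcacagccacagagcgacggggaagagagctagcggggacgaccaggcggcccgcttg
Nlrp3, chr11:59541319-59541618, plus strand: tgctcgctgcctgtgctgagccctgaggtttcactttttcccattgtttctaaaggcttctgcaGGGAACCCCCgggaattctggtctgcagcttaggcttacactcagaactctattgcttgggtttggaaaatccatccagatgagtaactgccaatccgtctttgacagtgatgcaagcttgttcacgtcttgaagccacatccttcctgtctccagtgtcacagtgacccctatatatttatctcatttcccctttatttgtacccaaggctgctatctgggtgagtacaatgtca
Nfkbia, chr12:55492598-55492897, minus strand: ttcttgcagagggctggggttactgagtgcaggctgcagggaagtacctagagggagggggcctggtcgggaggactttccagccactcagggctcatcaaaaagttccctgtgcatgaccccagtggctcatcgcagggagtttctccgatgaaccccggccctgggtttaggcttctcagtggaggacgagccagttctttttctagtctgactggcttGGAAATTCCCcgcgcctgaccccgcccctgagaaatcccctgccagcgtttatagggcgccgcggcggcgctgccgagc
In these windows the matches of Tnfaip3 began 125 and 12 bases before the start site, and those of Nfkb2 39, 38 and 11 bases before it. The first pair of Nfkb2 overlap and form 1 run of capitals. The match began 154 bases before the start site in Csf1, 186 in Nlrp3 and 29 in Nfkbia.

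Among the Rel subunits of the 10 genes, Nfkb2 and Relb of the non-canonical arm were higher in the HKO-labelled library. Nfkb1 and Rela of the canonical arm were close to level. Rel, a further canonical subunit gene that is not among the 10, had 204 and 311 counts, a ratio of 1.47 (1.23 to 1.77). Nfkb2 (ENSMUSG00000025225, chromosome 19, positions 46304320 to 46312385, plus strand) encodes the precursor of the non-canonical subunit. It had 198 counts in the flox-labelled library and 419 in the HKO-labelled library, a 2.05-fold higher level (1.73 to 2.44). Opposite it lies Psd, and 18.1% of the exonic bases of Nfkb2 are inside other annotated genes. Psd had 115 and 52 counts, the reverse order.

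Relb (ENSMUSG00000002983, chromosome 7, positions 19606217 to 19629438, minus strand) encodes the usual partner of that subunit. Its counts were 74 and 156, a 2.03-fold higher level (1.54 to 2.73). Both ratios lay close to the 2-fold limit, and for Relb the log2 ratio fell to 0.97 when the libraries were thinned to equal depth, which ended its call. The counts were too few to place either gene on 1 side of 2-fold, since both intervals include it.

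Nfkb1 (ENSMUSG00000028163, chromosome 3, positions 135584655 to 135691547, minus strand) encodes the precursor of the canonical DNA-binding subunit. It had 604 and 719 counts, a 1.15-fold higher level (1.03 to 1.29). Rela (ENSMUSG00000024927, chromosome 19, positions 5637483 to 5648130, plus strand) encodes p65, the subunit that carries the activation domain of the canonical dimer. It had 1391 and 1593 counts, a 1.11-fold higher level (1.03 to 1.19). For both genes the interval excludes equality, but the difference is small.

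Ratios between genes within a library do not depend on the scaling of the libraries. In the flox-labelled library there were 32.8 counts of Nfkb2 for every 100 of Nfkb1, and in the HKO-labelled library there were 58.3. The ratio of these was 1.78 (1.45 to 2.19). For Relb against Rela the corresponding ratio was 1.84 (1.37 to 2.48), from 5.32 counts of Relb for every 100 of Rela to 9.79. In the HKO-labelled library Nfkb2 was thus higher relative to Nfkb1, and Relb relative to Rela. Rel was in neither pair, so this does not describe each arm as a whole.

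The genes that restrain NF-κB differed most from each other among the 6 pairs of genes compared within a library. Tnfaip3 (ENSMUSG00000019850, chromosome 10, positions 19000910 to 19015657, minus strand) encodes a ubiquitin-editing enzyme that switches off signalling to the IκB kinase. It had 102 counts in the flox-labelled library and 324 in the HKO-labelled library, a 3.06-fold higher level (2.45 to 3.88). It had the largest ratio of the 10 genes, at percentile 98.1 of all genes tested. Nfkbia (ENSMUSG00000021025, chromosome 12, positions 55489410 to 55492647, minus strand) encodes IκBα, which holds canonical dimers in the cytoplasm. It had 1374 and 1074 counts, a 1.32-fold lower level in the HKO-labelled library (1.22 to 1.43). There were 7.42 counts of Tnfaip3 for every 100 of Nfkbia in the flox-labelled library and 30.2 in the other, a ratio of 4.06 (3.19 to 5.20). Both genes are known to be induced by NF-κB, and in these libraries they lay on opposite sides of equality.

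Of the inflammasome genes, the sensor was higher and the protease and its substrate were not distinguishable between the libraries at this depth. Nlrp3 (ENSMUSG00000032691, chromosome 11, positions 59541568 to 59566956, plus strand) had 17 and 43 counts, a 2.41-fold higher level (1.37 to 4.58). Casp1 (ENSMUSG00000025888, chromosome 9, positions 5298517 to 5307265, plus strand), which encodes caspase-1, had 43 and 48 counts, a ratio of 1.08 (0.701 to 1.67). Il1b (ENSMUSG00000027398, chromosome 2, positions 129364570 to 129371139, minus strand), which encodes the IL-1β precursor, had 63 and 77 counts, a ratio of 1.18 (0.837 to 1.68). The intervals of Casp1 and Il1b allow differences up to 1.67-fold and 1.68-fold, so they do not show that the levels were equal. Counts of Nlrp3 per 100 of Casp1 were 39.5 in the flox-labelled library and 89.6 in the HKO-labelled library, a ratio of 2.25 (1.07 to 4.87). Il1b against Nlrp3 went the other way, with a ratio of 0.485 (0.235 to 0.967).

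Csf1, a growth factor on which macrophages depend and a known NF-κB target, was the last of the 5 genes past 2-fold. Csf1 (ENSMUSG00000014599, chromosome 3, positions 107741048 to 107760469, minus strand) had 224 and 489 counts, a 2.11-fold higher level (1.80 to 2.49). Its receptor Csf1r had 1014 and 1475 counts and was 1.41-fold higher (1.30 to 1.53). Another gene covers 15.1% of its exonic sequence. The ligand differed more than the receptor, from 22.1 counts of Csf1 for every 100 of Csf1r to 33.2, and the interval of the ratio of these was 1.25 to 1.80.

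Levels were compared between the genes per kilobase of exon, as TMM-scaled CPM, the counts relative to library size. The length was that of all annotated exons of a gene merged, which can exceed that of the transcripts present. The order of the genes depends on this length, and the intervals do not cover it. In the flox-labelled library Nfkbia was highest at 43.6 (41.3 to 46.0) and Rela next at 23.1 (21.9 to 24.4). The other 8 genes lay between 0.214 and 2.56. In that library Nfkb1, Nfkb2, Csf1, Il1b, Casp1, Relb and Tnfaip3 followed in this order, each with an interval that overlapped that of the next, and Nlrp3 was lowest and apart. In the HKO-labelled library Nfkbia at 32.99 and Rela at 25.6 again led. Csf1 at 4.58 and Nfkb2 at 4.52 came next and were not distinguishable from each other. On this measure both lay above Nfkb1 at 2.95, whose merged exons span 12061 bases, against 5281 for Csf1 and 4584 for Nfkb2. Before division by length the order was the reverse, with Nfkb1 at 35.6 CPM, Csf1 at 24.2 and Nfkb2 at 20.7. Tnfaip3 had moved from the ninth place to the sixth, at 2.22 (1.98 to 2.47) against 0.721 (0.588 to 0.876), and its interval overlapped that of Il1b.

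The other genes of the pathway were read in 8 lists, against the 5.74% of all genes tested that were past 2-fold higher and the 4.66% that were past 2-fold lower. Of 6 other Rel and IκB family genes, Nfkbie, which encodes IκBε, was past 2-fold higher, at 31 and 66 counts, which is a ratio of 2.04 (1.33 to 3.27), and none was lower. The list median of the log2 ratio was 0.55, and 0.28 with a floor of 100 counts. The abundant members Nfkbib and Bcl3, an IκB-like coactivator, had ratios of 1.01 (0.906 to 1.13) and 1.44 (1.26 to 1.67), and 16.4% of the exonic bases of Nfkbib lie inside other genes. Of 25 kinases and adaptors tested none was past 2-fold in either direction, with a median of 0.10. The IκB kinase subunit Chuk had 2478 and 2047 counts and the ubiquitin ligase subunit Rbck1 1578 and 1116, which are 1.25-fold and 1.46-fold lower levels. Of the non-canonical arm, Map3k14, the kinase that starts it, had 98 and 166 counts, a ratio of 1.64 (1.27 to 2.13), and Traf3, which keeps that kinase low, had 246 and 408, a ratio of 1.60 (1.37 to 1.89). Both were picked for mention after their values were seen and do not stand for that arm as a whole. Chuk, which was lower, acts in it too.

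Of 11 ligands and receptors tested, Il1r1, the signalling receptor of IL-1, was the only gene past 2-fold, and it was lower. It had 2270 and 851 counts, a 2.76-fold lower level (2.55 to 2.99). Its partner Il1rap had 3016 and 1597 counts, a 1.95-fold lower level (1.84 to 2.07), and the receptor antagonist Il1rn 47 and 95, a ratio of 1.95 (1.36 to 2.84). The TNF receptor Tnfrsf1b had 2359 and 1375 counts, a 1.77-fold lower level (1.66 to 1.90). Il1r2, the decoy receptor, had 1 and 3 counts and was not tested. Il1rap, Il1rn, Tnfrsf1b and Il1r2 were also picked after their values were seen. The abundant receptors Ltbr and Tnfrsf1a had ratios of 1.04 (0.984 to 1.10) and 1.27 (1.18 to 1.35). The list median was 0.05, and 10 of its 21 genes had too few counts to be tested.

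Of 19 NF-κB target genes tested, 4 lay past 2-fold on the higher side and none on the lower, and 6 further genes were not tested for want of counts. These 4 stand beside 5.74% of all genes tested. The list median was 0.69, but 0.28 with a floor of 100 counts. The summed counts of the list, 9356 and 8545, were 1.13-fold lower (1.10 to 1.17). Ccl2, the monocyte chemoattractant, had 2 and 33 counts, a ratio of 16.0 (4.08 to 137). The chemokine Cxcl2 had 9 and 29 counts, Cxcl10 had 31 and 93, and the iron-binding defence protein Lcn2 had 145 and 345, with ratios of 3.005 (1.44 to 7.49), 2.87 (1.91 to 4.51) and 2.30 (1.89 to 2.82). The abundant targets Gadd45b and Bcl2l1, an inhibitor of apoptosis, were not among the higher genes and had ratios of 0.850 (0.763 to 0.946) and 0.698 (0.646 to 0.754). Of 11 negative regulators tested none was past 2-fold, with a median of 0.22, and of 0.070 with a floor of 100 counts. The most abundant were Zfp36, which binds cytokine mRNA, and the deubiquitinase Otulin, with ratios of 1.36 (1.32 to 1.41) and 1.16 (1.06 to 1.28).

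Of 21 other inflammasome genes, 2 lay past 2-fold on the higher side and none on the lower, beside 5.74% and 4.66% of all genes tested, and the median was 0.08. P2rx7, the ATP-gated channel that can start NLRP3 assembly, had 29 and 64 counts, a ratio of 2.12 (1.36 to 3.44). Naip1, a sensor of bacterial proteins, had 9 and 31 counts, but 13.0% of its sequence in 100-base words is shared with other genes, so the source of these reads is uncertain. Nlrp12, picked after its values were seen, had 21 and 10 counts, a 2.12-fold lower level whose interval (0.978 to 5.16) includes equality. The abundant Ninj1, which ruptures membranes of dying cells, had a ratio of 1.01 (0.968 to 1.04), and Txnip had 0.742 (0.711 to 0.775), with 19.4% of its exonic bases inside another gene. None of the 6 genes tested from the list of CSF receptors, their ligands and the macrophage transcription factor Spi1 was past 2-fold, and the median was 0.48. Csf2ra, a receptor subunit, had a ratio of 1.29 (1.11 to 1.49). Csf2 and Csf3 had 0 counts in both libraries, where the limit of 3 counts that a count of 0 allows is 0.153 and 0.148 CPM. Of 16 Toll-like receptors and adaptors tested, Tlr1, Tlr4 and Tlr7 were past 2-fold higher and none was lower, beside 5.74% of all genes tested. The list median was 0.54, but −0.026 with a floor of 100 counts. Tlr4, the receptor for endotoxin, had 21 and 44 counts, Tlr7 28 and 59 and Tlr1 11 and 38. The abundant Lbp and Unc93b1 had ratios of 0.917 (0.880 to 0.956) and 0.976 (0.896 to 1.06).

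**Figure D2:**
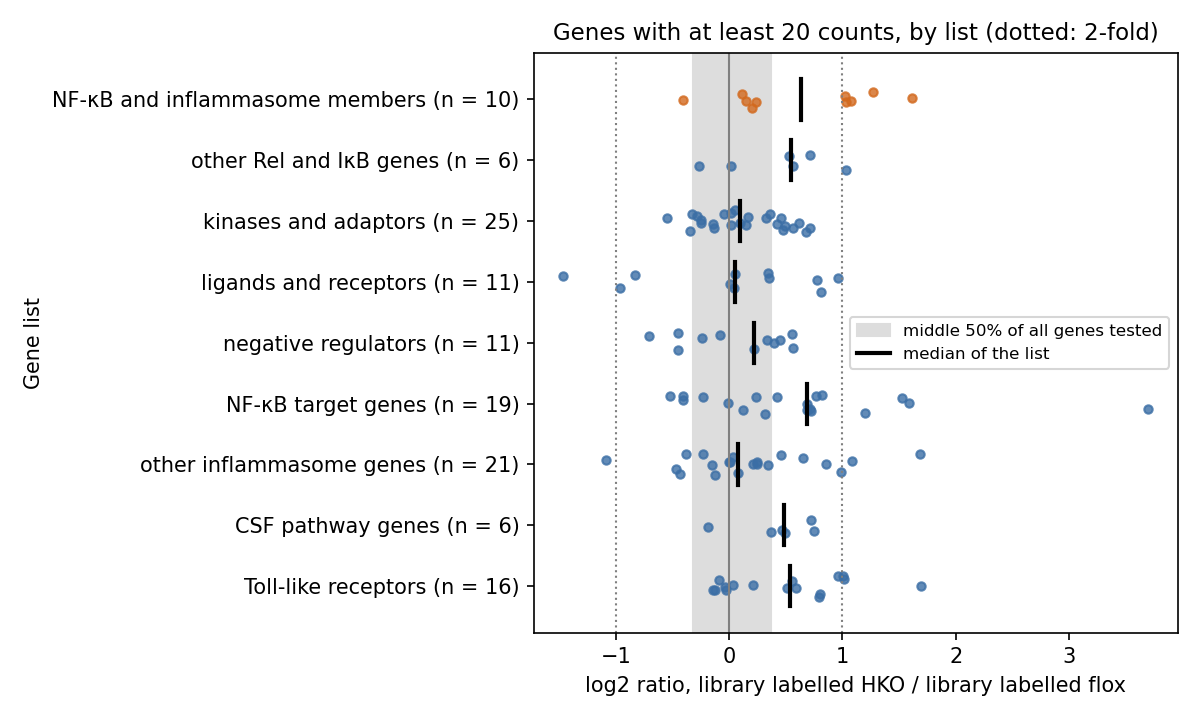
Each point is the log2 ratio of a gene with at least 20 counts over both libraries, by list, with the 10 genes of the report in orange, the list medians as black bars and the middle 50% of all genes tested in grey. The medians of the 10 genes (0.63) and of the NF-κB targets (0.69) lie above the grey band. So do those of the other Rel and IκB genes (0.55), the Toll-like receptors (0.54) and the CSF pathway genes (0.48). Inside it lie those of the kinases and adaptors (0.10), other inflammasome genes (0.08), ligands and receptors (0.05) and negative regulators (0.22).

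Markers of macrophages were higher in the HKO-labelled library. All 12 Kupffer cell and macrophage markers had intervals above equality, where 28.4% of all genes tested did. Their summed counts were 11535 in the flox-labelled library and 18769 in the HKO-labelled library, a 1.57-fold higher level (1.54 to 1.61). The defining Kupffer cell genes Clec4f and Timd4 had 2260 and 2851 counts, and 121 and 213. Markers of monocyte-derived macrophages summed to 152 and 483 counts, a ratio of 3.07 (2.56 to 3.71), and the 7 of 9 with enough counts all had intervals above equality. The summed counts were 26 and 61 for 8 T and NK cell markers, and 118 and 173 for 5 B cell markers. Neutrophil markers summed to 21 and 20 counts, and Ly6g and Mpo were at 0 in both. The 8 endothelial markers were 1.22-fold lower in sum (1.18 to 1.26), the 10 stellate cell markers 1.31-fold higher (1.26 to 1.35), the 4 bile duct markers 1.54-fold lower (1.40 to 1.70), and the 6 hepatocyte markers 1.56-fold lower (1.56 to 1.57). The bile duct list went both ways, with Krt19 (731 and 165 counts) and Krt7 (100 and 38) past 2-fold lower and Sox9 (94 and 404) past 2-fold higher. So did the stellate list, with Lrat (296 and 654) past 2-fold higher and Des (375 and 162) past 2-fold lower. In bulk liver, more cells of a type and more RNA per cell cannot be told apart, and the part of these cells in the differences was not tested.

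**Figure D3:**
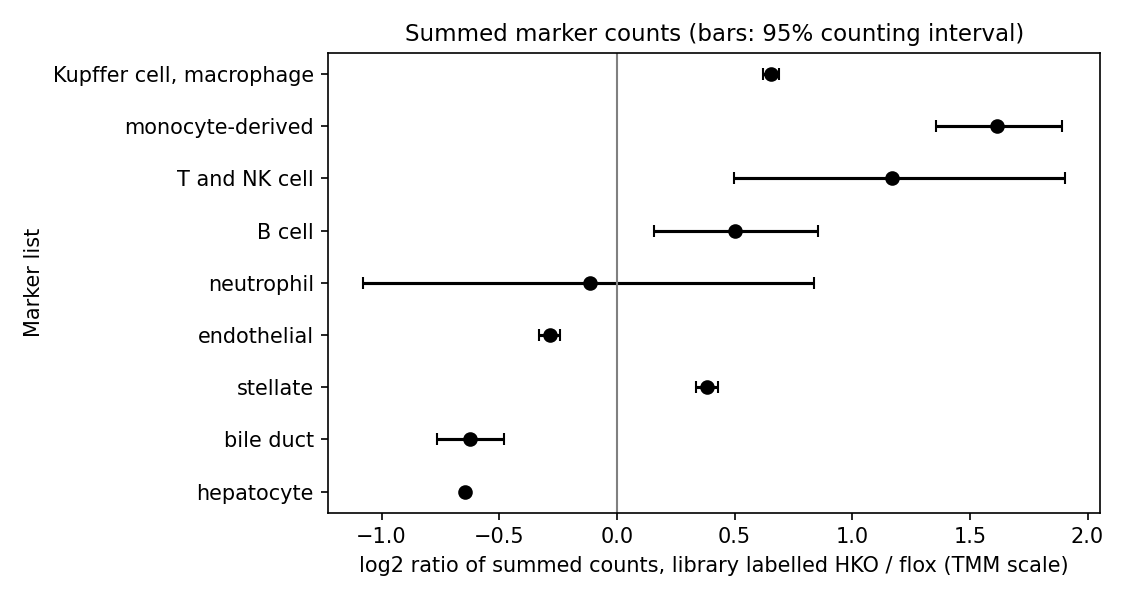
The log2 ratio of the summed counts of each marker list, HKO-labelled library over flox-labelled library on the TMM scale, with 95% counting intervals. Markers of macrophages, monocyte-derived cells, T and NK cells, B cells and stellate cells lie above equality, those of endothelium, bile duct and hepatocytes below it, and the interval of the neutrophil markers includes it.

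When each gene was read relative to the summed Kupffer cell and macrophage markers in place of the TMM scale, all 10 ratios moved down by the same amount. On that scale Tnfaip3 was higher by 1.95 (1.56 to 2.47), Csf1 by 1.34 (1.14 to 1.58) and Nfkb2 by 1.30 (1.09 to 1.55), and none of the 10 was past 2-fold higher. For Nlrp3 and Relb the ratios were 1.55 (0.868 to 2.91) and 1.30 (0.975 to 1.73), with intervals that include equality. Nfkb1 and Rela fell below equality, at 0.732 (0.654 to 0.819) and 0.704 (0.652 to 0.760), as did Nfkbia at 0.480 (0.442 to 0.522). Casp1 and Il1b had 0.686 (0.445 to 1.06) and 0.751 (0.531 to 1.07). This scaling was chosen after the data were seen.

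**Figure D4:**
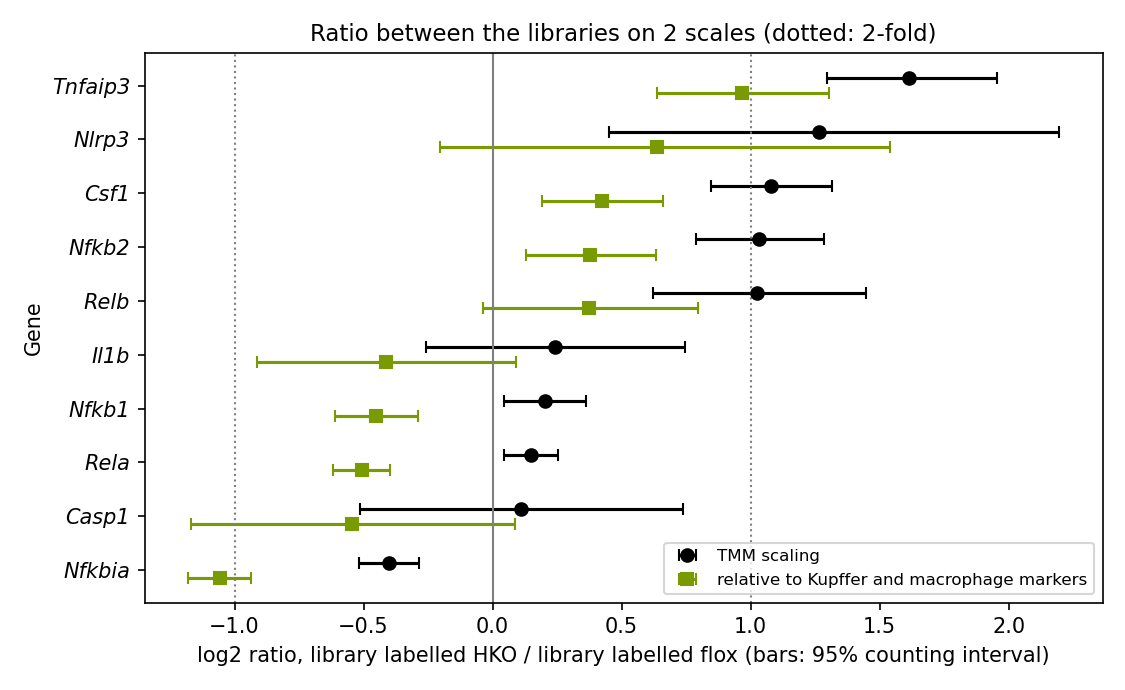
The log2 ratio of each of the 10 genes, HKO-labelled library over flox-labelled library, on the TMM scale (black circles) and relative to the summed Kupffer cell and macrophage markers (green squares), with 95% counting intervals and dotted lines at 2-fold. On the first scale 5 genes lie at or beyond 2-fold higher, and on the second none does and Nfkbia lies beyond 2-fold lower.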

How the data were processed

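The authors counted reads per gene and deposited those counts, from paired-end NEBNext libraries of pooled liver RNA. The submitters' processing notes give TopHat2, HTSeq 0.6.1 and GRCm38, whereas the published methods give Hisat2, and the choice between these aligners could not be settled. The strand setting is not stated and no molecular tags are described, so reads from opposite strands cannot be told apart and PCR copies count as reads. Each library held 52947 rows, and 311 of them named no gene and were left out (0.328% of the flox total and 0.261% of the HKO total). The depth was 21457504 and 18438807 counts of named genes, so 1 count equals 0.0511 and 0.0495 TMM-scaled CPM.

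Names, positions and exon lengths came from GENCODE M21 on GRCm38, which matched 52403 identifiers. Ratios used TMM factors from edgeR 4.0.16 (R 4.3.3), with a prior of 0.5 counts, except that with 1 to 3 counts in a library the ratio is given without it. Intervals are exact binomial (Clopper-Pearson) for ratios, exact conditional for ratios between genes and exact Poisson for levels above 0, at 95%, and cover counting error only. A gene needed 20 counts summed over the libraries to be tested against the 2-fold limit, and no p-value was computed. There were 8 pathway lists and 9 marker lists. The members and lists were chosen with earlier results of these data known. Genes are named by a rule, which takes the 10 members, every list gene past 2-fold, up to 6, the 2 most abundant genes of each list per kilobase, and Mettl3. Rel, Map3k14, Traf3, Il1rap, Il1rn, Il1r2, Tnfrsf1b, Nlrp12, Spi1 and the neighbour Psd fall outside it. They were chosen after their values were seen, and marker genes are named from the marker lists. Alternatives covered the scaling (total counts, upper quartile and DESeq2 1.42.0 size factors), the count floor, the prior, depth, fold limit and gene type. The steps were run on simulated Poisson counts, which hold no variation between mice or libraries. Changes were placed only in genes with many counts, so that run says nothing about genotype or about genes with few counts. Calculations used Python 3.11.15, NumPy 2.4.6, pandas 2.3.3 and SciPy 1.17.1, and figures matplotlib 3.10.9.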

Additional observations from a re-analysis of the deposited data

How the results depend on the processing

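Across 9 other settings, 4 or 5 of the 10 genes were past the fold limit on the higher side and none on the lower. In 1 of these settings the limit was 1.5-fold in place of 2-fold. No log2 ratio changed sign. Relb fell to 0.97 with equal depth, and Nlrp3 and Casp1 had too few counts for a floor of 100. With total counts, 1504 genes were past 2-fold higher and 409 lower, against 828 and 672. The lists of ligands and receptors, other inflammasome genes, CSF pathway genes and Toll-like receptors then had 3, 4, 1 and 6 higher genes, and the medians were 0.81 for the Rel and IκB genes, 0.36 for kinases and adaptors, 0.49 for negative regulators and 0.75 for CSF pathway genes. Every ratio is shifted by the same amount there. With a floor of 100 counts, 461 genes were higher and 312 lower, the NF-κB targets had 2 higher, and the Rel and IκB, other inflammasome and Toll-like receptor lists had 0, because fewer genes were tested. The median of the Toll-like receptors then was −0.026. With a prior of 2 counts the Rel and IκB list had 0 higher and the Toll-like receptors 1. The Toll-like receptors had 2 higher with DESeq2 size factors, with upper quartile scaling and with protein-coding genes only. With equal depth 1 other inflammasome gene was lower, and the cause was not tested. At 1.5-fold, 1874 genes were higher and 1486 lower. The kinases and adaptors, ligands and receptors, NF-κB targets, CSF pathway genes and Toll-like receptors then had 3, 3, 7, 2 and 6 higher, and the ligands and receptors and the negative regulators 3 and 1 lower. Scaling to the Kupffer cell and macrophage markers, chosen after the data were seen, gave 0 members higher and 1 lower, with a median of −0.023, and turned the log2 ratios of Nfkb1, Rela, Casp1 and Il1b to −0.45, −0.51, −0.55 and −0.41. No paired analysis was possible because each genotype has 1 library. The depth limits Nlrp3, Casp1 and Il1b most, whose intervals are the widest of the 10.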
